A study of Drosophila melanogaster with 16 samples.

Results

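The Wnt ligands, their receptors and the core of their signalling route were described across the adult life of fly motor neurons. The set held 10 genes, of 12972 genes named on the array, and they were read by 24 of 45366 features, a feature being a distinct probe. It was made of the ligands wg, Wnt2, Wnt4 and Wnt5, the receptors fz, fz2, fz3 and arr, and the cytoplasmic genes dsh and arm. A feature was assigned to a gene by the transcript accession it carried. The samples were motor neurons of Drosophila melanogaster females that expressed GFP through D42-Gal4 in a w1118 background and were kept at 25 °C. Flies were taken at 7 days (5 arrays), 35 days (5 arrays) and 45 days (6 arrays) after eclosion. Each array held the RNA of 1 independent pool of GFP-positive cells, isolated by flow cytometry from 5 flies and amplified before labelling with Cy3. All ages carried the same driver and reporter, D42-Gal4 is a motor neuron driver that is also active in some other cells, and the measured population is what the sort retained.

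Wnt proteins are secreted, lipid-modified ligands that bind Frizzled receptors on the receiving cell. In the canonical route, Frizzled and the coreceptor Arrow recruit Dishevelled, the complex that destroys Armadillo is held back, and Armadillo, the fly β-catenin, enters the nucleus and acts with Pangolin on target genes. At the fly neuromuscular junction, Wingless is known to be released into the synapse and to act through Frizzled 2 on both the nerve terminal and the muscle.

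Between 56.7% and 67.1% of spots were well above background on each array and no spot was saturated. The neuronal markers were detected on all 16 arrays (7 of 7), and so were 5 of the 6 motor neuron markers that had a feature, eve being detected on 6 arrays. Muscle markers were also present, with 9 of 10 detected on all arrays. Detection did not need every feature of a gene. The marker up, with 172 features, had levels from -10.58 to -9.52 at 35 days, below the lowest signal well above background there (-8.89 or higher on each array). The summed level of the muscle markers on the log2 scale ranged from -0.19 to 2.98 at 7 days, from 1.11 to 2.70 at 35 days and from 2.19 to 4.02 at 45 days, the highest being 45 days replicate 6. The summed level of 9 glial markers, all detected on all 16 arrays, ranged from 4.89 to 5.71 at 7 days, from 4.56 to 5.38 at 35 days and from 4.20 to 5.14 at 45 days. That of the 7 neuronal markers ranged from 4.53 to 4.84, from 4.31 to 4.62 and from 4.42 to 4.72. On every 7-day array the glial sum was above the neuronal sum. For 6 motor neuron markers the ranges were 2.46 to 3.12, 2.59 to 3.24 and 2.52 to 3.19. For 6 fat body markers they were 3.12 to 4.33, 3.50 to 4.52 and 3.58 to 4.82. The share of each cell type in the pools was not measured. All 7-day arrays lay in 1 row of the slides and all 35-day arrays in the other, while the 45-day arrays were spread 3 and 3 over both rows, so age and slide row cannot be told apart between 7 and 35 days. In pooled cells, fewer cells that express a gene and less of its RNA per cell cannot be told apart either.

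No Wnt gene passed the threshold of an adjusted p under 0.05 with a change over 2-fold, whichever pair of ages was compared (limma, Benjamini-Hochberg adjustment over all genes). Between 7 and 35 days, 0 of 10 genes and 0 of 24 features passed, where 0.1% of all genes and 0.097% of all features did. Between 7 and 45 days the members again numbered 0 and 0, against 0% of all genes and 0.375% of all features. Between 35 and 45 days they numbered 0 and 0, against 0.00771% of genes and 0.0154% of features. The methods' t-test with the same adjustment and minimum fold also gave 0 members at every pair, and 2, 1 and 0 genes at an unadjusted p under 0.05. At an unadjusted p under 0.05, limma gave 2 of 10 genes between 7 and 35 days (24.1% of all genes), 1 between 7 and 45 days (9.07%) and 0 between 35 and 45 days (6.98%). Among features, these were 4 of 24 (27.2% of all features), 1 (8.46%) and 0 (7.85%). The 2 genes were wg, lower at 35 days as were 21.2% of all genes at that p, and fz2, higher at 35 days as were 2.92%. The 1 gene of 7 against 45 days was fz2, again higher, as were 2.43% of all genes. The 7-day and 35-day arrays did not overlap in 2 of 10 genes, where 4.38% of all genes had no overlap. They were fz2, detected on every array, and wg, whose readings were mostly at background, so that their order there is not one of measured levels. The smallest p that an exact permutation test of 5 against 5 arrays can give is 0.00794. No member had arrays without overlap between 7 and 45 days or between 35 and 45 days, where 1.19% and 0.586% of all genes did.

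**Figure D1:**
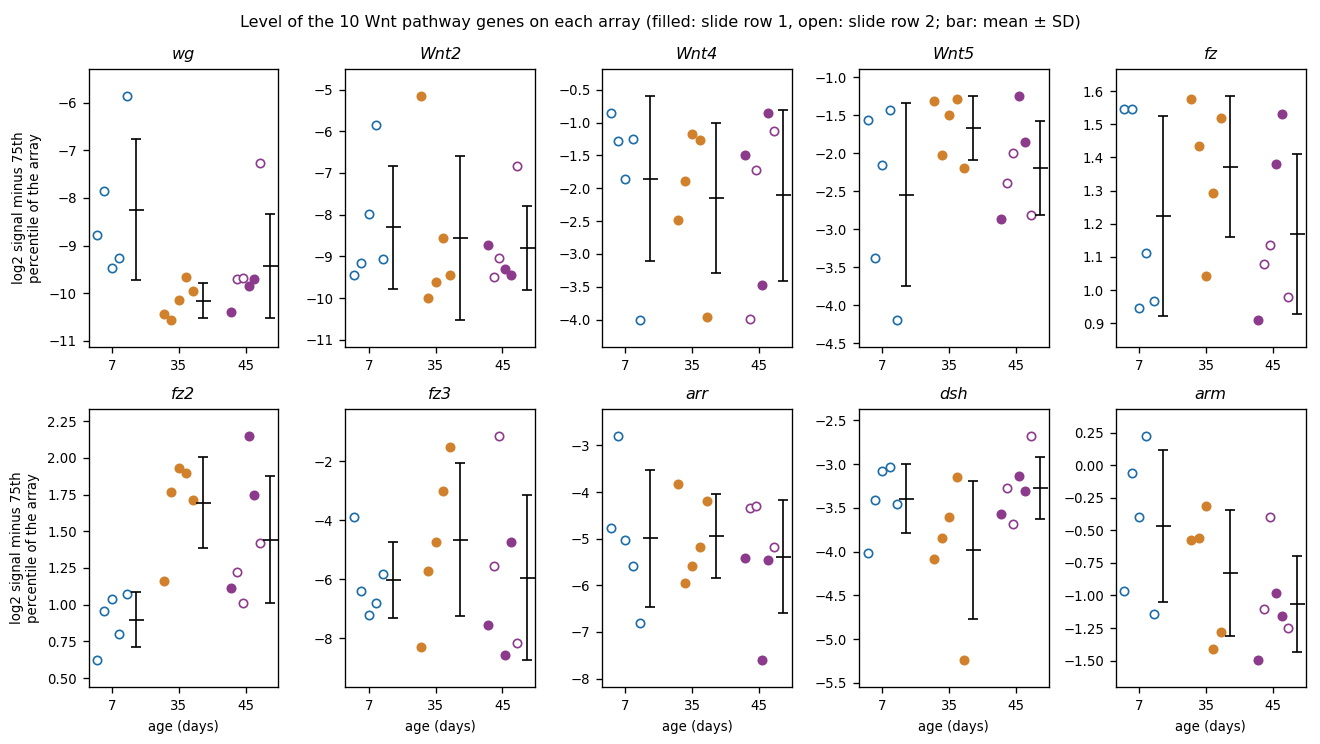
Level of each of the 10 Wnt genes on the 16 arrays by age, on a log2 scale set to 0 at the array's 75th percentile; points are arrays, filled in slide row 1 and open in slide row 2, and bars give the mean and SD. The 35-day arrays of wg all lie below the 7-day arrays and those of fz2 all lie above them, while the arrays of the 3 ages overlap for the other 8 genes.

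All levels below are log2 signal minus the 75th percentile of the array, averaged over the features of a gene, so a level of 0 stands at that percentile. All differences are older minus younger on the same scale.

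wingless, wg, encodes the founding fly Wnt. Its levels were -8.77, -7.86, -9.48, -9.26 and -5.86 on the 7-day arrays and -10.44, -10.57, -10.15, -9.66 and -9.95 on the 35-day arrays. On the 45-day arrays the lowest, median and highest were -10.39, -9.71 and -7.27. The 35-day readings had the lowest mean and the smallest SD, but only 1 of the 6 45-day arrays lay above all of them. There were 2 high arrays at 7 days and 1 at 45 days. wg was close to the limit of detection throughout. At least 1 of its 3 features was well above background on 7 days replicates 2 and 5 and on 45 days replicate 6, none was on a 35-day array, and 1 of the 3 was on no array at all. The 7-day mean was -8.24 ± 1.47 (SD, n = 5), the 35-day mean -10.15 ± 0.37 (SD, n = 5) and the 45-day mean -9.43 ± 1.09 (SD, n = 6).

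Because no 35-day array measured wg above background, its difference there has at most a bound. For the gene no fold is given, since its 7-day mean of -8.24 was itself below the lowest signal well above background at that age (mean -7.52), and without 7 days replicate 5 or replicate 2 it was below that of the 35-day arrays too. Feature 3 of wg, the one with the highest level at 7 days, had levels of -7.32, -4.57, -9.43, -9.07 and -3.50 at 7 days, where 2 of the 5 arrays were well above background. Against the lowest signal well above background on each 35-day array, its 7-day mean was 2.96-fold higher. This is not a strict bound, since that mean includes 7-day readings that were not well above background. The value was 1.68-fold without 7 days replicate 5 and 4.68-fold without replicate 3, so it rests on few arrays. On the readings as they stand, limma gave this feature a difference of -3.68 (adjusted p = 0.0921). The limma fit on the readings as they stand gave wg a difference of -1.91 with an adjusted p of 0.113. Setting every value below the lowest signal well above background to that signal, array by array, gave a difference of -1.40 and an adjusted p of 0.0473, past the threshold. With that floor 602 of 12972 genes passed, against 13 without it. The lowest signal well above background was itself lower at 35 days, with a mean of -8.34 against -7.52 at 7 days. With 1 floor for all arrays the difference of wg was -0.52 (adjusted p = 0.741). Between 7 and 45 days, where 2 of 5 and 1 of 6 arrays measured wg, the readings differed by -1.19 (95% interval -2.78 to 0.40, exact permutation p = 0.162), and by -0.59 without 7 days replicate 5. No fold is given between 35 and 45 days. The array that measured wg at 45 days, replicate 6, also had the highest summed muscle markers of the 16 arrays, whose part in the wg level was not tested. Markers of hemocytes, the blood cells of the fly, were lower at 35 than at 7 days as well, in 6 of 6 genes. Over all genes 67.6% were lower, with a median of -0.34. The median of the hemocyte markers was -1.01, and Hml among them differed by -0.01. Their summed level ranged from -1.09 to 0.12 at 7 days and from -2.56 to -0.62 at 35 days. Muscle and tracheal markers were lower in 7 of 10 and 3 of 4 genes, and fat body markers were higher in 5 of 6. Of the hemocyte markers 2 were well above background on all arrays and He, a defining one, on none. The part of these cell types in the wg difference was not tested.

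**Figure D2:**
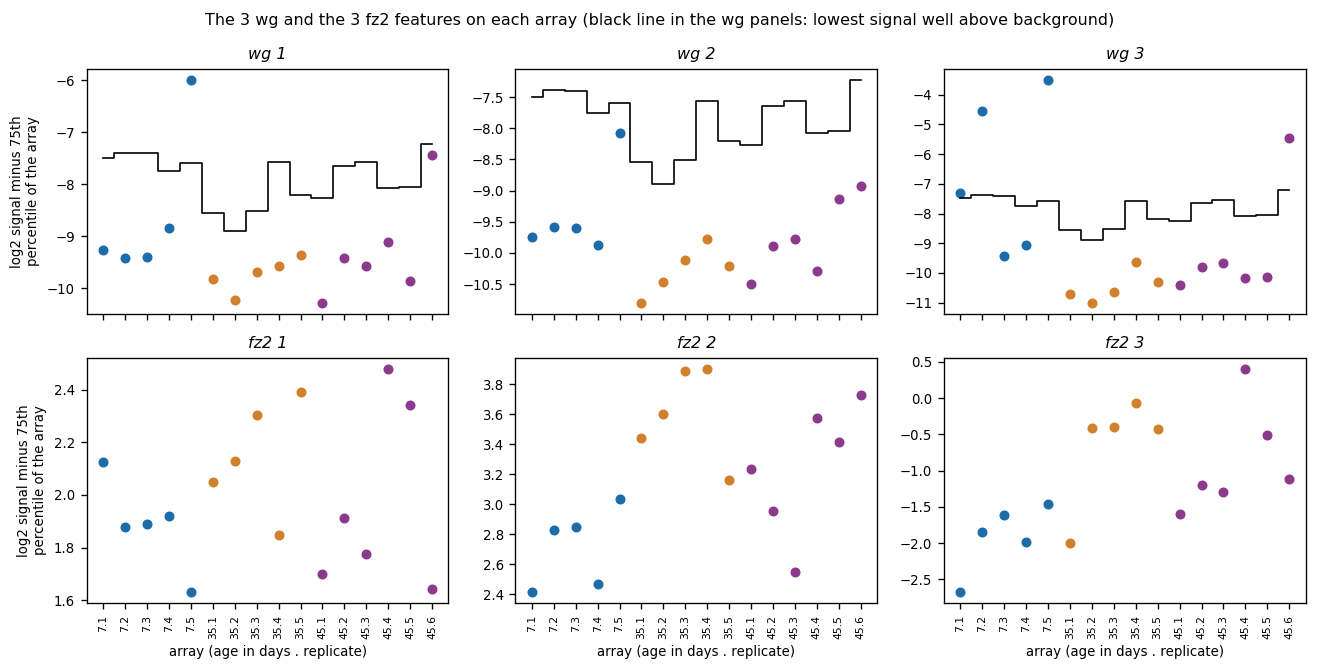
Level of each of the 3 wg and 3 fz2 features on every array, on a log2 scale set to 0 at the array's 75th percentile, with a black step for the lowest signal well above background on each array in the wg panels. Most wg points lie below the step and the few above it belong to 7-day arrays and 45 days replicate 6, whereas all fz2 points were well above background.

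Wnt2, a ligand known for roles in gonad and tracheal development, was at the limit of detection on most arrays. Its levels at 7 days were -9.46, -9.16, -8.00, -5.85 and -9.06. Those at 35 days were -5.15, -10.00, -9.63, -8.57 and -9.45. The lowest, median and highest at 45 days were -9.49, -9.18 and -6.84. Each age thus had 1 or 2 arrays well above the others and the ages overlapped. A feature of Wnt2 was well above background on 5 arrays, namely 7 days replicates 3 and 4, 35 days replicate 1 and 45 days replicates 1 and 6. The difference was -0.25 between 7 and 35 days (95% interval -2.52 to 2.01), -0.50 between 7 and 45 days and -0.25 between 35 and 45 days, with limma adjusted p from 0.809 to 0.93. Without 35 days replicate 1 the first of these was -1.11, and without 7 days replicate 4 it was 0.36, so its direction turned with single arrays.

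Wnt4, a ligand that in flies acts in axon targeting and cell movement, was detected on every array. Its levels at 7 days were -0.86, -1.28, -1.86, -1.24 and -4.01. Those at 35 days were -2.48, -1.89, -1.17, -1.26 and -3.96. Among the 45-day arrays the lowest, median and highest were -3.99, -1.60 and -0.86. The ages overlapped fully, with 1 low array at 7 days and at 35 days and a pair of low arrays at 45 days. The low arrays came mostly from 1 of the 2 features, whose levels ran from -7.47 to -2.11 over the 16 arrays, while the other ran from -1.38 to 0.49. The 7-day, 35-day and 45-day means were -1.85 ± 1.26 (SD, n = 5), -2.15 ± 1.14 (SD, n = 5) and -2.11 ± 1.30 (SD, n = 6). The differences were -0.30, -0.26 and 0.04 for 7 against 35, 7 against 45 and 35 against 45 days (limma adjusted p 0.845, 0.912 and 0.987). Without 7 days replicate 5 the first and second were -0.84 and -0.80.

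Wnt5 signals through the Derailed family of receptors and is known in the fly for guiding commissural axons and for synapse growth. Both of its features were well above background on all arrays. Its levels were -1.56, -3.38, -2.15, -1.44 and -4.20 at 7 days and -1.31, -2.02, -1.50, -1.29 and -2.20 at 35 days. The lowest, median and highest of the 45-day arrays were -2.86, -2.20 and -1.24. Replicates 2 and 5 at 7 days were the lowest of all, and the 35-day arrays lay within a narrower range that overlapped the other 3 arrays of 7 days. The difference was 0.88 between 7 and 35 days (SE 0.54, 1.84-fold, limma adjusted p = 0.359), 0.35 between 7 and 45 days (SE 0.53, adjusted p = 0.826) and -0.53 between 35 and 45 days (SE 0.34, adjusted p = 0.545). The first was 0.47 without 7 days replicate 5. The 2 features varied together over the 16 arrays (r = 0.87). The genes whose levels varied most like those of Wnt5 were Ist1 (r = 0.85) and CG16896 (r = 0.83), among 4757 genes well above background in all features on all 16 arrays.

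frizzled, fz, encodes a membrane receptor that serves both the canonical route and planar polarity. Its levels were 1.55, 1.55, 0.95, 1.11 and 0.97 at 7 days and 1.57, 1.43, 1.04, 1.29 and 1.52 at 35 days. The 45-day arrays had a lowest level of 0.91, a median of 1.11 and a highest level of 1.53. All 16 arrays lay within this narrow band and the ages overlapped. The differences were 0.15 between 7 and 35 days (95% interval -0.33 to 0.62), -0.05 between 7 and 45 days (-0.51 to 0.40) and -0.20 between 35 and 45 days (-0.64 to 0.23), with limma adjusted p of 0.733, 0.936 and 0.704. The SD of fz within an age was at percentile 3.99 of all genes, among the smallest. That spread is of the mean of 2 features that did not vary together (r = -0.39), each of which ranged more widely, from -0.67 to 0.83 for the first and from 1.32 to 3.10 for the second. CG1622 (r = 0.76) and CG15814 (r = 0.72) varied most like fz.

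frizzled 2, fz2, encodes the Wingless receptor of the neuromuscular junction. Its levels were 0.62, 0.95, 1.04, 0.80 and 1.07 at 7 days and 1.16, 1.77, 1.93, 1.89 and 1.71 at 35 days. On the 45-day arrays the lowest, median and highest were 1.01, 1.32 and 2.15. All 35-day arrays were above all 7-day arrays, 35 days replicate 1 by a small margin, and 5 of the 6 45-day arrays were above all 7-day arrays, with replicate 3 inside their range. The 7-day, 35-day and 45-day means were 0.90 ± 0.19 (SD, n = 5), 1.69 ± 0.31 (SD, n = 5) and 1.44 ± 0.43 (SD, n = 6).

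The level of fz2 was higher by 0.80 at 35 than at 7 days (SE 0.21, 95% interval 0.33 to 1.27, 1.74-fold). This gave an exact permutation p of 0.00794 over the arrays and a limma adjusted p of 0.112 over all genes, so it did not pass. The adjusted p of fz2 was 0.0473 with the floor of each array and 0.0357 with array weights. Only the minimum of 2-fold kept it from passing in these, and over all alternatives it ran from 0.0357 to 0.815. Both settings raised the calls widely, and the fz2 readings themselves were all above the floor. With the floor 602 of 12972 genes passed, against 13 in the main run. With weights 3249 of 45366 features passed, against 44. Between 7 and 45 days the difference was 0.55 (SE 0.24, 95% interval 0.02 to 1.07, 1.46-fold, exact permutation p = 0.0216, limma adjusted p = 0.533). Between 35 and 45 days it was -0.25 (SE 0.26, adjusted p = 0.73). Over the 3 ages together, the F test gave fz2 the lowest adjusted p of the 10 genes, 0.218, wg being next at 0.238. By that test 0 of 10 genes and 0 of 24 features passed, against 0.0694% of all genes and 0.582% of all features, and 2 of 10 genes and 3 of 24 features had an unadjusted p under 0.05, against 18.2% and 20.7%.

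The 3 fz2 features were each well above background on all 16 arrays and did not differ equally with age. Between 7 and 35 days features 1, 2 and 3 were higher by 0.26, 0.88 and 1.25, with limma adjusted p of 0.415, 0.0921 and 0.0921. Between 7 and 45 days their differences were 0.09, 0.52 and 1.03, with exact permutation p of 0.0455 for feature 2 and 0.00866 for feature 3, and the lowest limma adjusted p of any Wnt feature there was 0.485. The arrays of 7 and 35 days did not overlap in feature 2, which ranged from 2.42 to 3.03 at 7 days and from 3.16 to 3.90 at 35 days. Feature 3 ranged from -2.68 to -1.46 at 7 days and lay between -0.42 and -0.07 on 4 of the 35-day arrays, with 35 days replicate 1 alone inside the 7-day range. Of the 24 features, the 2 whose arrays did not overlap between these ages were feature 2 of fz2 and feature 3 of wg, the latter over readings at background, where 4.33% of all features had no overlap.

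The fz2 difference between 7 and 35 days was 0.83 on slide 1 alone and 0.83 on slide 2 alone, and it kept its sign in every alternative run, from 0.73 to 1.14. Among the 45-day arrays, which alone cover both slide rows, fz2 averaged 1.67 in the first row and 1.22 in the second (exact permutation p = 0.3, the smallest possible being 0.1 with 3 against 3 arrays). The 35-day arrays all lay in the first row. With 7-day and 45-day arrays of the second row only, the difference between those ages was 0.32. The levels of rudhira (r = 0.84) and Ctps (r = 0.82) were the most like those of fz2.

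**Figure D3:**
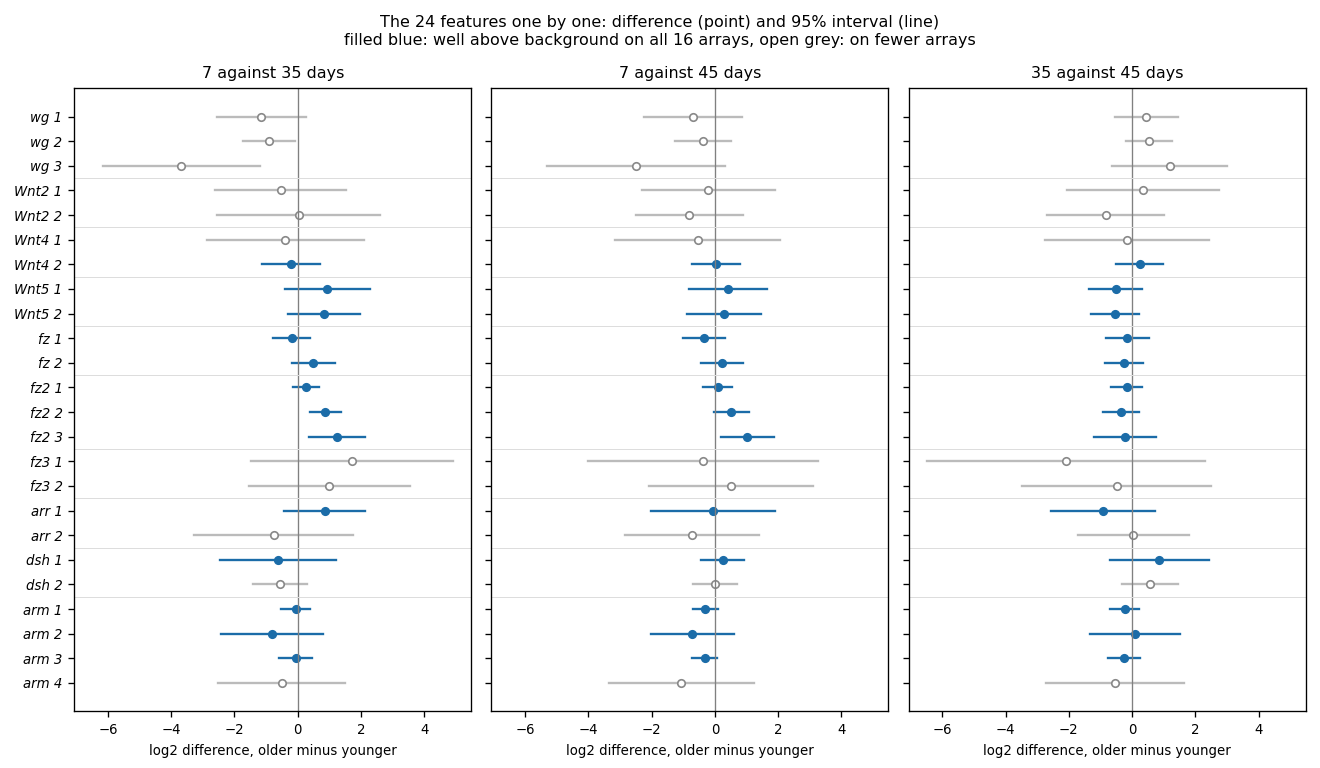
Difference between ages, with its 95% interval, for each of the 24 features of the Wnt genes in 3 comparisons, on the log2 scale; filled points were well above background on all 16 arrays and open grey points on fewer. Features 2 and 3 of fz2 and feature 3 of wg, the latter at background at 35 days, stand farthest from 0 for their interval between 7 and 35 days, and the widest intervals belong to features with incomplete detection.

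frizzled 3, fz3, encodes a receptor with weak signalling activity that is itself induced by Wingless. Its levels were -3.89, -6.38, -7.20, -6.80 and -5.82 at 7 days and -8.30, -5.71, -4.73, -2.99 and -1.53 at 35 days. Among the 45-day arrays the lowest, median and highest were -8.55, -6.54 and -1.13. Both older ages spanned more than the whole 7-day range in both directions. The SD of fz3 within an age, 2.33, was at percentile 89.9 of all genes, whose median was 0.75. The differences were 1.37 (95% interval -1.28 to 4.01), 0.07 (-2.71 to 2.85) and -1.29 (-4.63 to 2.04) for 7 against 35, 7 against 45 and 35 against 45 days, with limma adjusted p of 0.538, 0.991 and 0.761. The slides went opposite ways: between 7 and 35 days the difference was -1.11 on slide 1 and 4.35 on slide 2, and between 35 and 45 days it was 1.51 and -4.90. Without 35 days replicate 5 the pooled values were 0.59 and -0.51, and without 35 days replicate 1 they were 2.28 and -2.20. At 7 days the features of fz3 were well above background in 8 of 10 readings, at 35 days in 9 of 10 and at 45 days in 9 of 12, so the low arrays are in part readings at background.

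arrow, arr, encodes the LRP5 and LRP6 type coreceptor of the canonical route. Its levels were -4.77, -2.79, -5.03, -5.59 and -6.80 at 7 days and -3.83, -5.94, -5.58, -5.17 and -4.20 at 35 days. On the 45-day arrays the lowest, median and highest were -7.61, -5.30 and -4.29. The ages overlapped. The 7-day, 35-day and 45-day means were -5.00 ± 1.46 (SD, n = 5), -4.94 ± 0.90 (SD, n = 5) and -5.38 ± 1.21 (SD, n = 6), and the differences were 0.05, -0.39 and -0.44 (limma adjusted p 0.976, 0.866 and 0.811). The 2 arr features varied little alike (r = 0.24). The first lay between -1.85 and -0.56 on 14 of the 16 arrays, but at -3.97 on 7 days replicate 5 and at -5.34 on 45 days replicate 4. The second was at background on most arrays. Among the 45-day arrays, those of the first slide row averaged -6.16 and those of the second -4.61, without overlap (exact permutation p = 0.1, the smallest possible).

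dishevelled, dsh, encodes the cytoplasmic protein that relays the signal of Frizzled receptors. Its levels were -4.01, -3.41, -3.07, -3.04 and -3.45 at 7 days and -4.08, -3.85, -3.60, -3.14 and -5.24 at 35 days. The lowest, median and highest of the 45-day arrays were -3.68, -3.29 and -2.67. The ages overlapped and 35 days replicate 5 was the lowest of all. The differences were -0.59 (SE 0.39), 0.12 (SE 0.25) and 0.71 (SE 0.36) for 7 against 35, 7 against 45 and 35 against 45 days, with limma adjusted p of 0.399, 0.873 and 0.529. Without that replicate the first was -0.27 and the last 0.39. The low array came from the brighter feature, which was at -3.27 on 35 days replicate 5 and between -0.20 and 1.65 on the other 15 arrays. The other feature, which enters the mean of the gene equally, was well above background on 7 of the 16 arrays, and the 2 features had r = -0.14.

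armadillo, arm, encodes β-catenin, which also links cadherins to actin at adherens junctions. Its levels were -0.96, -0.06, -0.40, 0.23 and -1.14 at 7 days and -0.57, -0.56, -0.32, -1.41 and -1.28 at 35 days. Its 45-day arrays had a lowest level of -1.50, a median of -1.13 and a highest level of -0.40. Of the 45-day arrays, 3 of 6 lay below all 7-day arrays and 3 within their range. The 7-day, 35-day and 45-day means were -0.47 ± 0.58 (SD, n = 5), -0.83 ± 0.49 (SD, n = 5) and -1.06 ± 0.37 (SD, n = 6). Its difference between 7 and 45 days was -0.60 (SE 0.30, 1.51-fold, exact permutation p = 0.0693, limma adjusted p = 0.585), the 95% interval of the difference being -1.26 to 0.06. For 7 against 35 days the difference was -0.36 (adjusted p = 0.582), and for 35 against 45 days -0.24 (adjusted p = 0.763).

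The 4 arm features fell into pairs by the transcript record they carry. Features 1 and 3, bright on every array, varied closely together (r = 0.95). In feature 1, levels ranged from 3.55 to 3.92 at 7 days, from 3.25 to 4.10 at 35 days and from 3.19 to 3.84 at 45 days. Their differences between 7 and 45 days were -0.30 and -0.32, with limma adjusted p of 0.659 and 0.652 and exact permutation p of 0.0541 and 0.0433. Features 2 and 4 were dimmer and ranged more widely, from -4.23 to -0.30 and from -9.35 to -4.70 over the 16 arrays, feature 4 being well above background on 9 of them. They differed by -0.71 and -1.06 between 7 and 45 days. Every other pair of arm features had r between -0.34 and 0.21.

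The receptors were each higher at 35 than at 7 days, 4 of 4, with a median difference of 0.47, where 32.4% of all genes were higher and the median of all genes was -0.34. Of these 4 only fz2 had an interval that left out 0, and the sign turned in arr in 4 alternatives beside some that left out 1 array, and in fz and fz3 on slide 1 alone. Under median or quantile scaling none of the 4 turned, and there 49.8% and 45.8% of all genes were lower at 35 days. Over features well above background on all 16 arrays, 47.3% of genes were lower at 35 days, with a median of 0.03. The share of all genes that were higher thus depended on the processing. At 45 days 2 of the 4 were higher than at 7 days (34% of all genes) and 4 of the 4 were lower than at 35 days (40.6% of all genes), with medians of 0.01 and -0.35. On slide 1 alone fz3 and arr turned in the latter comparison, and in the former fz turned with median scaling and arr with quantile scaling. Among the ligands, 3 of 4 were lower at 35 than at 7 days (67.6% of all genes) and 3 of 4 at 45 than at 7 days (66% of all genes), with medians of -0.28 and -0.38, wg and Wnt2 among them being mostly at background, and 2 of 4 were lower at 45 than at 35 days. Under median scaling Wnt2 and Wnt4 turned in the first of these comparisons and Wnt4 in the second. The core genes dsh and arm were both lower at 35 than at 7 days and went opposite ways in the other comparisons, dsh turning between 7 and 35 days with quantile scaling and arm on slide 1 alone. Over the 10 genes the median difference was -0.10, -0.16 and -0.24 for 7 against 35, 7 against 45 and 35 against 45 days, beside medians of all genes of -0.34, -0.21 and 0.15. The sign of the first depended on the processing: it was 0.35 with quantile scaling, 0.25 with median scaling, 0.16 with normexp and 0.15 over features well above background on all 16 arrays. The second was 0.055, 0.17, -0.13 and 0.029 in these, and the last kept its sign in them. These comparisons share arrays, and no test was made of these lists.

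**Figure D4:**
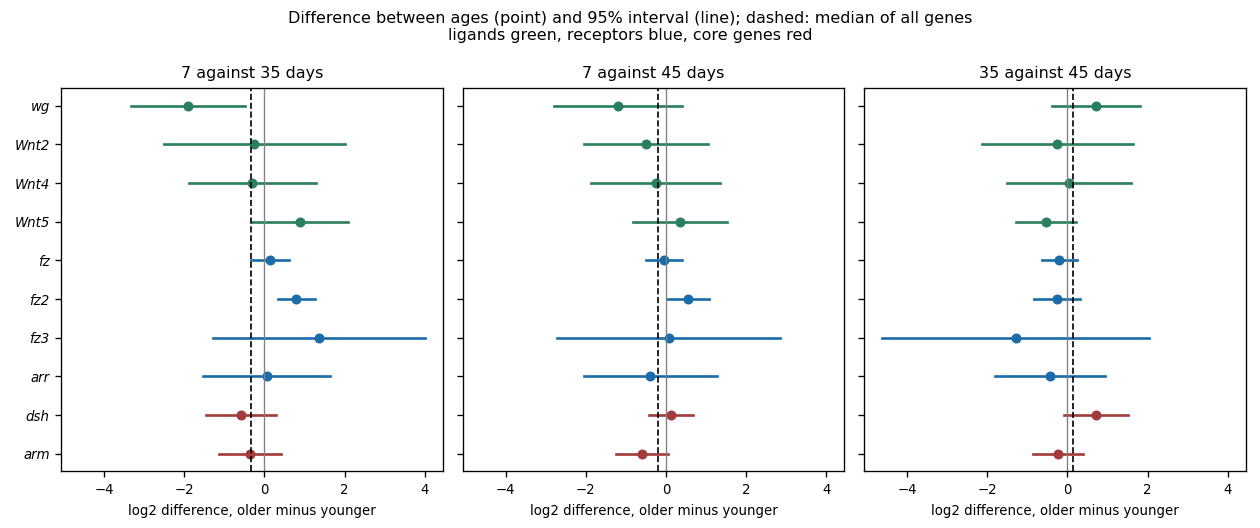
Difference between ages in each of the 10 Wnt genes, with its 95% interval, on the log2 scale in 3 comparisons, ligands in green, receptors in blue and core genes in red; the dashed line is the median of all genes. Between 7 and 35 days the interval of fz2 (0.33 to 1.27) leaves out 0, and that drawn for wg does so over readings mostly at background, while between 35 and 45 days none does.

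A further 33 genes of the pathway had features on the array, in lists of other ligands, other receptors, secretion partners, the destruction complex, nuclear partners of Armadillo, planar polarity partners and targets. Of these, 0 passed the threshold in any pair of ages, and 3, 2 and 1 had an unadjusted p under 0.05 between 7 and 35, 7 and 45 and 35 and 45 days (limma), where 24.1%, 9.07% and 6.98% of all genes had. Their median differences were -0.07, -0.08 and -0.02. Wnt6, a ligand gene that neighbours wg in the genome, differed most among the other ligands between 7 and 45 days, by 1.68 (limma adjusted p = 0.68), and wntD, an inhibitor of Dorsal signalling, differed by -0.30. The extremes of the other receptors were fz4 at 1.46 and drl, a receptor of Wnt5, at -0.22. Among the genes for Wnt secretion and its extracellular partners, Swim, which carries Wingless outside cells, differed by 1.06 and por, the acyltransferase that lipidates Wnts, by -0.73. None of these differences passed the test. The lowest signal well above background averaged -7.52 at 7 days and -7.80 at 45 days. The means of wntD at these ages were -9.43 and -9.73, those of Wnt6 -7.52 and -5.84, and those of Swim -6.98 and -5.92. Thus wntD lay below that signal at both ages, and Wnt6 and Swim lay near it at 7 days.

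The destruction complex and its regulators were lower at 45 than at 7 days in 7 of 8 genes, where 66% of all genes were lower, with a median of -0.21. Their extremes were Tnks, which marks Axin for degradation, at 0.32 and gish, a casein kinase, at -0.46. The nuclear partners of Armadillo ran from 0.39 for gro, a corepressor, to -1.70 for lgs, the fly BCL9. The planar polarity partners ran from 1.07 for dgo to -1.59 for pk. Of the target and feedback genes, nkd, an inhibitor that Wingless induces, differed by -0.63. Among 7 genes that the study took as Wnt responsive, a choice made on these arrays, 0 passed. At 45 days 5 were higher and 2 lower than at 7 days, where 34% and 66% of all genes were. At the upper end was axo with 1.1. At 7 days axo averaged -6.89 and dgo -7.12, near the lowest signal well above background at that age (mean -7.52).

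**Figure D5:**
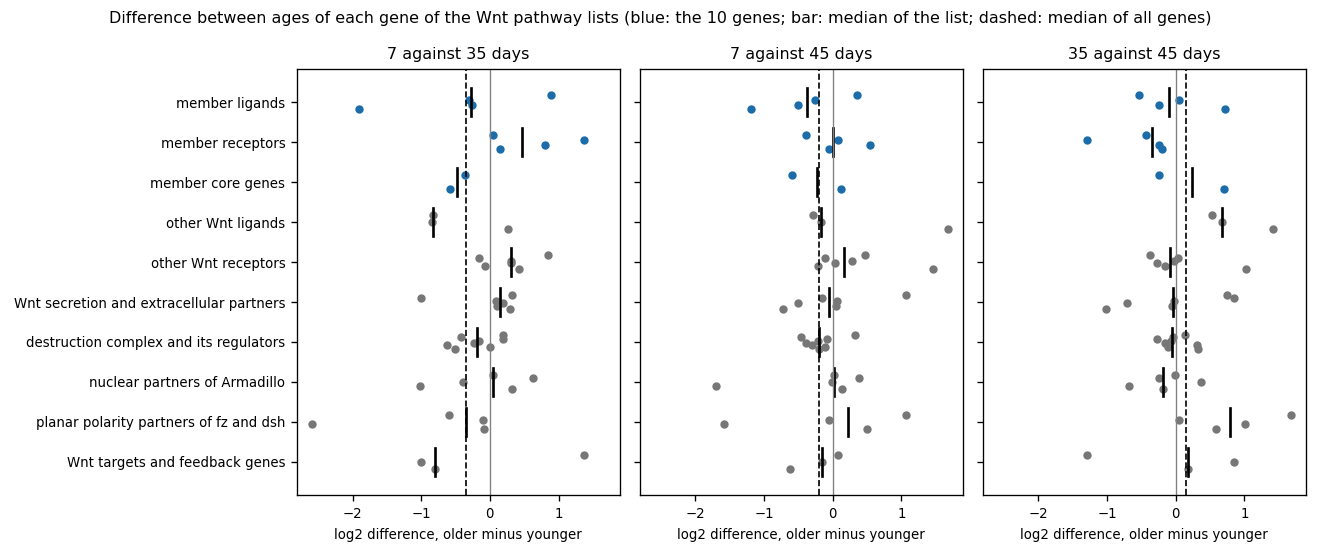
Difference between ages on the log2 scale for the genes of 10 lists of the Wnt pathway in 3 comparisons, with a bar for the median of each list and a dashed line for the median of all genes. The genes of each list fall on both sides of 0 in most lists, and none passed the threshold.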

How the data were processed

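Motor neuron RNA from 16 pools was hybridised to 16 custom Agilent 1-colour arrays. The authors scanned them with Feature Extraction 11.5.1.1, and the deposited files hold its background-corrected Cy3 intensity for each spot, with flags. A deposited table of log2 values scaled to the 75th percentile, which the authors made in GeneSpring, was used for names and as an alternative. Here, control and outlier spots were left out, processed intensity was put on the log2 scale, the array's 75th percentile was subtracted, and spots of a feature and then features of a gene were averaged. Each pair of ages was tested on its own arrays by limma 3.58.1 under R 4.3.3, and p-values were adjusted over all genes or features by the Benjamini-Hochberg method. Of 45366 features, 34792 were named. The scripts were tested on simulated data with independent normal noise, 1 SD per gene and no background floor. There, log2 changes of 2 passed the threshold in 40%, 43% and 43% of changed genes over the 3 pairs of ages. Changes of 4 passed in 76%, 72% and 76%, and 6, 3 and 9 unchanged genes passed. Real arrays differ from that setting, so these shares need not hold for them.

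The members and lists were chosen with earlier results of these data known. All 10 members are named; of other pathway genes, those past the threshold or at either end of their list between 7 and 45 days. Same-numbered arrays did not deviate together (r from -0.06 to 0.13), so the numbers were not used to pair samples. This cannot show whether same-numbered pools were handled together. The alternatives covered background correction, scaling, floors, detection filters, slide, row, replicate block, array weights, the t-test of the methods and leaving out each array. RNA was amplified, so faint transcripts may be read less evenly. The number of arrays limits the precision.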

Additional observations from a re-analysis of the deposited data

Results flagged for a closer look

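Of 30 sets of arrays, each a Wnt gene at 1 age, 4 held an array whose distance to the nearest other array exceeded Dixon's 95% limit. About 1 in 20 independent sets of normal values would exceed it. These sets share arrays, and those of wg and Wnt2 are mostly at background, so the count cannot be read against that rate. The share over all genes is not given. In wg, 45 days replicate 6 stood at -7.27, with the next array at -9.67. In Wnt2 the same replicate stood at -6.84, with the next at -8.73. This replicate also had the highest summed muscle markers (4.02) and the most outlier spots (635), whose part was not tested. In fz2, 35 days replicate 1 was the lowest at 1.16, with the next at 1.71. In arr, 45 days replicate 4 was the lowest at -7.61, with the next at -5.47, and this array had the smallest share of spots well above background (56.7%).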

How the results depend on the processing

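The count of members past the threshold was 0 at every pair of ages and in the F test, for genes and features, in all alternatives except these. With values floored at the lowest signal well above background on each array, 1 gene passed between 7 and 35 days (wg, -1.40, adjusted p 0.0473, mostly between floored values) and so did 2 features, 1 of wg and 1 of fz2. With array weights, 1 feature of wg passed between 7 and 35 days and 1 feature of fz2 in the F test. Those settings raised the calls over all 12972 genes or 45366 features too. Between 7 and 35 days 602 genes and 3020 features passed with the floor, against 13 and 44 in the main run. With weights 3249 features passed between these ages and 4615 in the F test, against 44 and 264. Leaving out each array in turn gave 0 throughout, and the median difference of the 10 genes then ranged from -0.42 to 0.12, from -0.40 to 0.04 and from -0.30 to -0.16 for 7 against 35, 7 against 45 and 35 against 45 days. With the replicate number as a block, 0 members passed and those medians were -0.10, -0.22 and -0.22, so it changed no call.

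Directions that turned belonged to differences that were not past the threshold. Normexp gave Wnt2 0.21 (7 against 35) and wg -0.18 (35 against 45). Quantile scaling gave Wnt2 0.72 and dsh 0.076 (7 against 35), and Wnt2 0.10 and arr 0.0057 (7 against 45). Median scaling gave Wnt2 0.094 and Wnt4 0.047 (7 against 35), and Wnt4 0.066 and fz 0.27 (7 against 45). The floor of each array gave arr -0.050 (7 against 35) and Wnt2 0.11 (35 against 45), and a common floor, added after seeing the data, Wnt2 0.053 (7 against 35). Features well above background on all 16 arrays gave Wnt4 0.029 (7 against 45). The brightest feature gave Wnt2 0.031 (7 against 35), and Wnt4 0.029, fz 0.23 and fz3 -0.37 (7 against 45). Slide as a block gave arr -0.11 (7 against 35) and fz3 -0.13 (7 against 45). Slide 1 alone gave Wnt2 1.05, fz -0.20, fz3 -1.11, arr -1.34 and arm 0.031 (7 against 35), Wnt2 0.22 (7 against 45), and Wnt4 -0.55, fz3 1.51 and arr 0.44 (35 against 45). Slide 2 alone gave Wnt4 0.55, fz 0.29 and fz3 -0.55 (7 against 45), and Wnt2 0.48 and arm 0.22 (35 against 45). The slide row as a term, or its second row alone, gave arr 0.39 (7 against 45). The replicate block gave Wnt4 -0.15, and array weights Wnt4 -0.072 (35 against 45) and arr -0.19 (7 against 35). The cause was not tested.

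Leaving out 1 array turned these: between 7 and 35 days Wnt2 (-1.11 to 0.36), Wnt4 (-0.84 to 0.15) and arr (-0.40 to 0.60); between 7 and 45 days Wnt2 (-0.90 to 0.11), Wnt4 (-0.80 to 0.12), Wnt5 (-0.060 to 0.63), fz (-0.13 to 0.026), fz3 (-0.89 to 0.60), arr (-0.84 to 0.16) and dsh (-0.031 to 0.21); between 35 and 45 days Wnt2 (-0.65 to 0.60), Wnt4 (-0.41 to 0.42) and arr (-0.69 to 0.0045).

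The median of all genes moved with the scaling, from -0.34, -0.21 and 0.15 for 7 against 35, 7 against 45 and 35 against 45 days to 0.01, 0.12 and 0.12 with median scaling, and fz2 was then 1.14 higher at 35 than at 7 days. The slide row could not be fitted between 7 and 35 days, and wg, Wnt2 and fz3 had no value where features had to be well above background on all 16 arrays. Signals at background limit wg, Wnt2, fz3, arr, dsh and the dimmest feature of arm.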
